A study of Mus musculus with 24 samples.

Results

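Microglia of 12-month-old and 6-month-old DBA/2J mice were compared, which takes 15 of the 24 retinas measured and 10 of the 15 animals. The 12-month group held 10 retinas of 5 animals, the right and the left eye of each, and the 6-month group, labelled as early disease, held 1 retina of each of 5 other animals. All 10 animals were untreated and carried the genotype Gpnmb-/- Tyrp1b-/-, so the 6-month mice carry the alleles that cause disease as well. By the labels, 3 of the 12-month retinas had mild disease (2 animals), 4 moderate (3 animals) and 3 severe (2 animals), while the 6-month retinas had no grade. From each retina 100 to 600 cells were sorted as CD11b+, Ly6c- and Fcrls+, and RNA of the whole sort was sequenced, with 1 library per retina. Expected counts were added over both eyes of each 12-month animal, and n counts animals. A 12-month value therefore rests on 2 retinas of an animal and a 6-month value on 1. No 6-month Gpnmb+ animals, the strain with a working Gpnmb, were in the data used here, so age and stage of disease cannot be told apart. In RNA of sorted pools, fewer cells of a type and less RNA per cell cannot be told apart either.

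Microglia are the resident macrophages of the retina and brain. At rest they survey the tissue and express P2ry12, Tmem119, Cx3cr1 and Sall1, a state kept by TGF-beta and by the Csf1 receptor. Near dying neurons they take up debris and can pass into a disease-associated state (MGnD or DAM), in which Apoe, Trem2 pathway genes, lysosomal proteases and antigen presentation genes are raised and homeostatic genes lowered. DBA/2J mice develop pigment dispersion in the iris, raised eye pressure and loss of retinal ganglion cells with age, and are a standard mouse model of glaucoma.

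Total counts per retina were 1706775 to 20081114 at 12 months and 12043911 to 17993059 at 6 months, with 10703 to 15046 and 13818 to 16716 genes detected. Itgam, which encodes CD11b, had 447 ± 177 CPM at 12 months and 429 ± 113 CPM at 6 months (SD, n = 5 each). CPM are counts scaled to a common library size, here by TMM. Fcrls, the sort marker, averaged 38.5 ± 36.0 CPM at 12 months and 30.4 ± 17.4 CPM at 6 months, and 2 of the 10 retinas at 12 months had no Fcrls count. Ly6c1, Ly6c2, Gpnmb and Tyrp1 were at 0 in all 15 retinas, and the limit that 0 counts leave (3 counts of the library total, counting error only) was 0.149 to 1.76 CPM in 12-month retinas and 0.167 to 0.249 CPM in 6-month retinas. The retinas from 12-month animal 1 OD (right eye, 4983389 counts) and animal 4 OS (left eye, 1706775 counts) had the smallest totals of the 15 and stood apart in several measures below.

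No single gene passed the test. In the quasi-likelihood F test of edgeR, 0 of 12156 genes (0%) reached a Benjamini-Hochberg adjusted p below 0.05, with 0.139 as the smallest. Genes with an unadjusted p below 0.05 are called nominally higher or lower in what follows. There were 510 nominally higher genes (4.2%) and 408 nominally lower ones (3.36%) at 12 months. In 185 genes (1.52%) all 5 animals at 12 months were above all 5 at 6 months, and in 128 (1.05%) all were below. The median log2 fold change of all genes tested was 0.01. DESeq2 on the same sums called 217 genes, 143 of them higher at 12 months.

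Among abundant genes without overlap between the ages, those with the smallest p at 12 months were a lipid carrier, chemokines, lysosomal proteins and antigen presentation genes. Apoe (chromosome 7, 19696109 to 19699188, GRCm38), the gene of the lipid carrier apolipoprotein E, had 23716, 14211, 8213, 3541 and 5992 CPM in 12-month animals 1 to 5, against 2142, 2262, 830.1, 986 and 1393 CPM in 6-month animals 1 to 5. The lowest 12-month animal stood above the highest 6-month one, and the 12-month animals differed among themselves by more than the 6-month ones. The log2 fold change of Apoe was 2.87 ± 0.47 (SE, adjusted p = 0.139). Ccl12, a chemokine that draws CCR2-bearing monocytes in mice, had 1252, 927, 792, 676 and 1271 CPM at 12 months, against 266, 299, 277, 90.7 and 84.6 CPM at 6 months (2.27 ± 0.37 on the log2 scale, adjusted p = 0.139). For Apoe and Ccl12, each of the 10 retinas at 12 months also exceeded each 6-month retina. Cd63, a tetraspanin of late endosomes and lysosomes, had 395, 374, 239.6, 509 and 189.9 CPM at 12 months, against 98.6, 129, 114, 114 and 141 CPM at 6 months (1.51 ± 0.26, adjusted p = 0.139). At 6 months its values lay close together, and 9 of the 10 retinas at 12 months were above all of them.

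Cxcl13, the chemokine of B cells and follicular helper T cells, was near absent at 6 months. It had 168, 299, 89.8, 22.1 and 103 CPM in the 12-month animals, against 3.15 CPM (59 counts) in 6-month animal 1 and 0 counts in the other 4. Its fitted log2 fold change of 7.66 ± 1.37 (adjusted p = 0.153) thus rests on the counts of 1 animal at 6 months. Within the 12-month group it was uneven between the eyes of animal 4, with 4 counts in the right retina and 156 in the left. Without 6-month animal 1 Cxcl13 was called by edgeR (adjusted p = 0.0178, range 0.00307 to 0.700 over the alternatives), the only gene called in that fit. Lyz2, the lysozyme of macrophages, had 1374, 1215, 480.2, 818 and 466 CPM at 12 months, against 325, 142, 41.5, 91.0 and 210.4 CPM at 6 months (2.42 ± 0.49, adjusted p = 0.153). Reads of Lyz2 and its close paralog Lyz1 may have been shared out between them.

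Further genes of this group had log2 fold changes of 1.00 to 1.44. Among them were Naaa, a lysosomal amidase (367 ± 107 CPM at 12 months and 148 ± 42.1 CPM at 6 months, SD, n = 5 each), Cxcl16, a membrane-bound chemokine that also scavenges lipids (194 ± 57.4 and 71.7 ± 23.5 CPM in the same order), and Pycard, the inflammasome adaptor ASC (461 ± 126 and 231 ± 26.3 CPM). Clec4a3, a C-type lectin receptor, had 135 ± 33.9 CPM at 12 months and 61.7 ± 9.25 CPM at 6 months. H2-D1, H2-K1, Fcgr2b and mt-Nd2 belong here too and are described with their pathways. Gm28437, an annotated pseudogene on chromosome 1, had 1177 ± 313 CPM at 12 months and 481 ± 186 CPM at 6 months. Its value is uncertain, since pseudogenes of this kind can share reads with the mitochondrial genome.

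**Figure D1:**
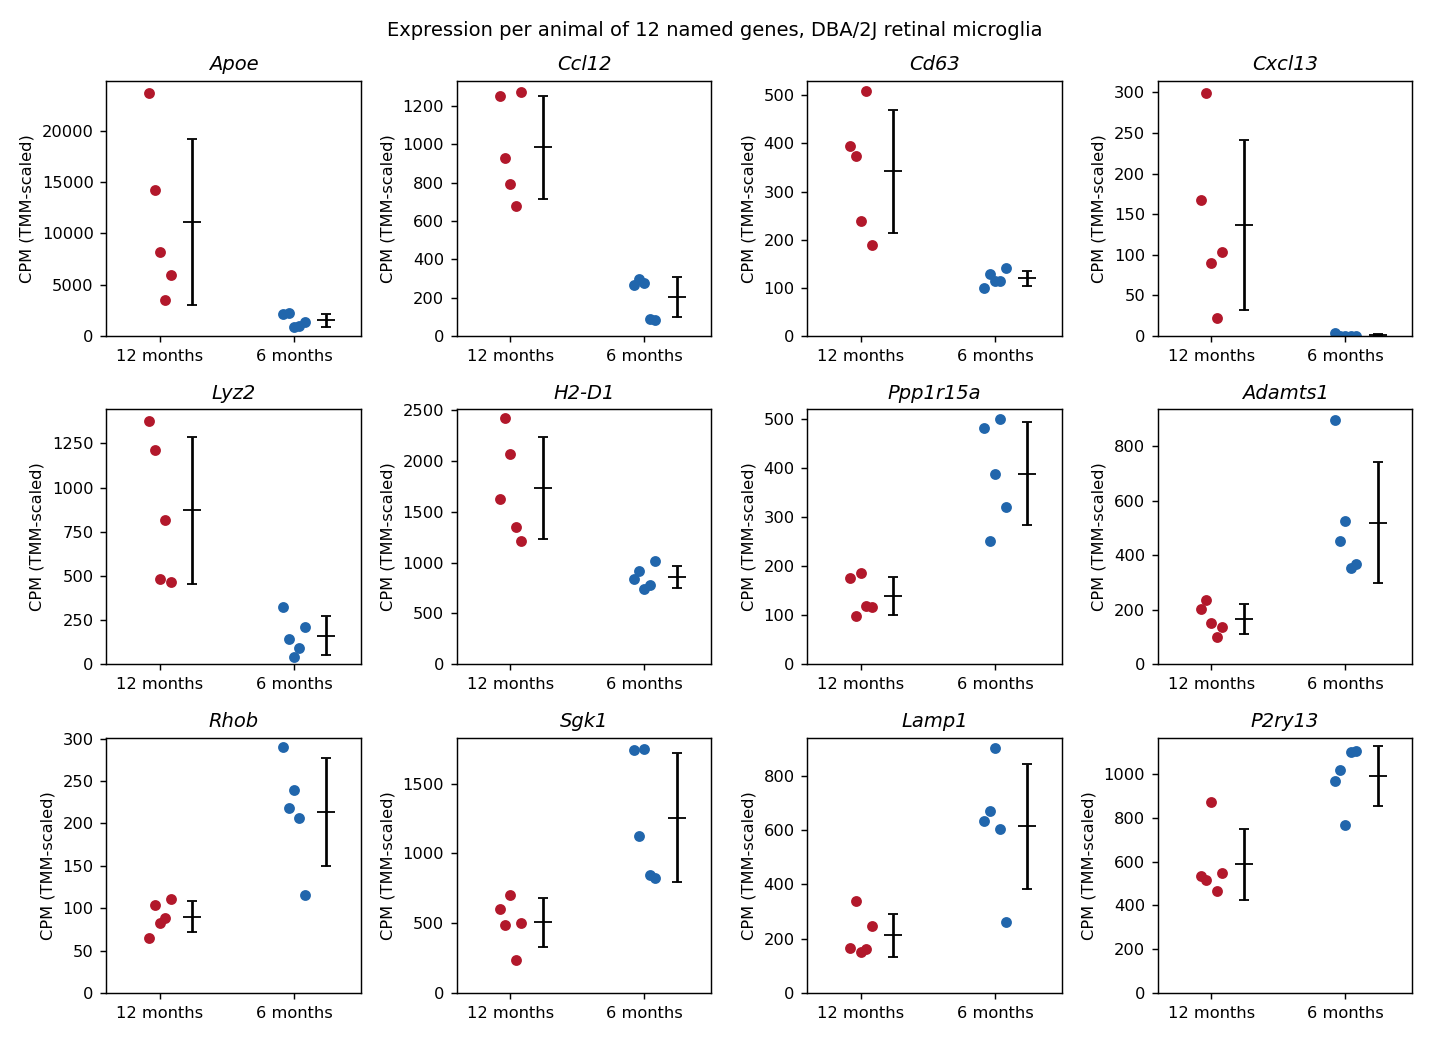
TMM-scaled CPM per animal (points) for 12 named genes in 12-month (left) and 6-month (right) DBA/2J microglia, with mean and SD (bars, n = 5 each, cut at 0). The points of the ages do not overlap for the first 10 panels, and those of Lamp1 and P2ry13 do.

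Ppp1r15a, Adamts1, Sgk1 and Rhob were among the abundant genes with the smallest p whose 12-month animals all lay below all 6-month animals. Ppp1r15a (chromosome 7, 45522916 to 45526268), also called GADD34, recruits the phosphatase that restarts translation after stress. It had 176, 99.3, 185, 119 and 116 CPM in 12-month animals 1 to 5, against 482, 252.3, 387, 499 and 321 CPM in 6-month animals 1 to 5 (-1.48 ± 0.25 on the log2 scale, adjusted p = 0.139). Adamts1, a secreted metalloprotease, had 203, 237, 150.2, 100.2 and 139 CPM at 12 months, against 894, 454, 527, 353 and 367 CPM at 6 months (-1.65 ± 0.30, adjusted p = 0.153). For these genes each of the 10 retinas at 12 months lay below each 6-month retina. Sgk1, a serum- and glucocorticoid-induced kinase, had 505 ± 173 CPM at 12 months and 1258 ± 462 CPM at 6 months (SD, n = 5 each). Rhob, an early-response GTPase of endosomes, had 65.2, 103, 82.5, 88.3 and 111 CPM at 12 months, against 289.6, 218, 239.7, 206 and 116 CPM at 6 months. Here 6-month animal 5 came close to the highest 12-month animal.

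Srgap2 and Cyfip1, regulators of actin, had 393 ± 61.6 and 322 ± 50.6 CPM at 12 months, against 659 ± 39.6 and 546 ± 73.2 CPM at 6 months in the same order. Exoc6b, a subunit of the exocyst that tethers vesicles to the membrane, had 13.5 ± 6.22 CPM at 12 months and 53.8 ± 6.59 CPM at 6 months. Mcur1, a regulator of mitochondrial calcium uptake, had 7.33 ± 3.41 CPM at 12 months and 56.2 ± 37.7 CPM at 6 months, with 6-month animals 2 and 4 far above the other 3. The ubiquitin enzyme genes Usp48 (58.8 ± 14.9 CPM at 12 months and 128 ± 25.9 CPM at 6 months) and Dtx4 (96.2 ± 10.9 and 163 ± 13.2 CPM) belong here too. So do Fam102b, Mapre2, which encodes a protein of growing microtubule ends, Tox4, the RNA-binding protein gene Stau1 and the intronic transcript Gm29488, with log2 fold changes of -1.66 to -1.20. Gm29488 lies inside Srgap2 on chromosome 1, so reads of the unspliced Srgap2 transcript cannot be told apart from it.

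The promoters of 4 of these genes are shown because most immediate early genes had negative log2 fold changes. Only CREB and AP-1 sites were searched, and other elements of such promoters were not. The 4 genes are Ppp1r15a and Rhob of the immediate early list, and Apoe and Cd63 of the disease-associated list, those with the smallest p in each. Each promoter is 300 bases of RefSeq sequence (GRCm38.p6), 250 before the annotated start and 50 from it on, printed 5′ to 3′ on the gene's strand. Capitals mark the cAMP response element TGACGTCA or the AP-1 element TGACTCA, both searched on both strands. The windows are chr7:45526219-45526518 (minus strand) for Ppp1r15a, chr12:8499960-8500259 (minus) for Rhob, chr7:19699139-19699438 (minus) for Apoe, the first of 3 listed, and chr10:128909095-128909394 (plus) for Cd63.
Ppp1r15a: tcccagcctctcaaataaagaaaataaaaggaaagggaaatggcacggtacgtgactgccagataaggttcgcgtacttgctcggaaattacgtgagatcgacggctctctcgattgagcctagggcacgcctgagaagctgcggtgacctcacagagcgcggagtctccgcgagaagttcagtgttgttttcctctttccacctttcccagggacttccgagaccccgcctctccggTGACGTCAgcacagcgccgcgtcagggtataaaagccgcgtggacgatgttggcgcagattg
Rhob: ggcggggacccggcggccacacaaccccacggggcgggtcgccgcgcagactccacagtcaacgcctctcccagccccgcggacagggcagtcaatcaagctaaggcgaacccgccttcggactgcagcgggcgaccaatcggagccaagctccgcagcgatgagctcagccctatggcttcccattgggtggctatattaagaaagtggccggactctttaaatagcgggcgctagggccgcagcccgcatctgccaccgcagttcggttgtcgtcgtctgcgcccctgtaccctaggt
Apoe: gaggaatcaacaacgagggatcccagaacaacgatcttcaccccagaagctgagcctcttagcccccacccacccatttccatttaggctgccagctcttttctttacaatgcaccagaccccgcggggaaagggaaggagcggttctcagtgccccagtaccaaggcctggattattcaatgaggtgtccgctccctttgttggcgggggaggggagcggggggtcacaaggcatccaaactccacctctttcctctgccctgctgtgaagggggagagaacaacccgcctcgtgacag
Cd63: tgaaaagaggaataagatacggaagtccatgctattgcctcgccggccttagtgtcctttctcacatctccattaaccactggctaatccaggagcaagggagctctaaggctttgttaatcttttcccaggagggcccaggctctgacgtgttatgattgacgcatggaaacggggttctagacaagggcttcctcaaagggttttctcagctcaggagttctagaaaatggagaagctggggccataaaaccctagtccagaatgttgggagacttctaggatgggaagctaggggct
The Ppp1r15a window held TGACGTCA at base 239 of 300, and the other windows held neither set of letters. Of all 27025 promoters of this length, 507 (1.88%) held TGACGTCA, and of the 8510 of genes tested, 288 (3.38%). Of 32 immediate early genes with a promoter in the table, 3 (9.38%) held it. TGACTCA was in 1396 of all promoters (5.17%), in 271 of those of genes tested (3.18%) and in 0 of the 32. Of 29 disease-associated genes with a promoter in the table, 1 (3.45%) held TGACGTCA and 3 (10.3%) held TGACTCA. A match of letters is no evidence of binding.

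Immediate early genes, the first to be transcribed after a stimulus, mostly had negative log2 fold changes, and none was called. Of 34 tested of 38 listed, 29 had negative and 5 positive log2 fold changes. The median was -0.62, against 0.01 for all genes, and -0.27 without 6-month animal 1. Nominally, 11 were lower, where 3.36% of all genes were, and 0 higher. In 3 of them, Ppp1r15a, Rhob and Sgk1, the ages did not overlap. Ier2, a nuclear early-response gene, had 396, 393, 658, 221 and 259 CPM at 12 months, against 2055, 997, 1185, 454 and 345 CPM at 6 months. Here the ages overlapped, and 6-month animal 1 was far above the other 4. The other members at this p were Atf3, Dusp6, Egr2, Btg2, Jun, Dusp1 and Dusp2, with log2 fold changes of -2.71 to -0.62. Fos and Egr1, the best-known members, had log2 fold changes of -0.13 and -0.41 and were not nominally lower (p = 0.666 and 0.315). Within the 6-month group the members' median stood at 0.89 in animal 1 and -0.48 in animal 5 relative to the group's mean on the log2(CPM + 1) scale, so these genes varied between the 6-month retinas too.

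**Figure D2:**
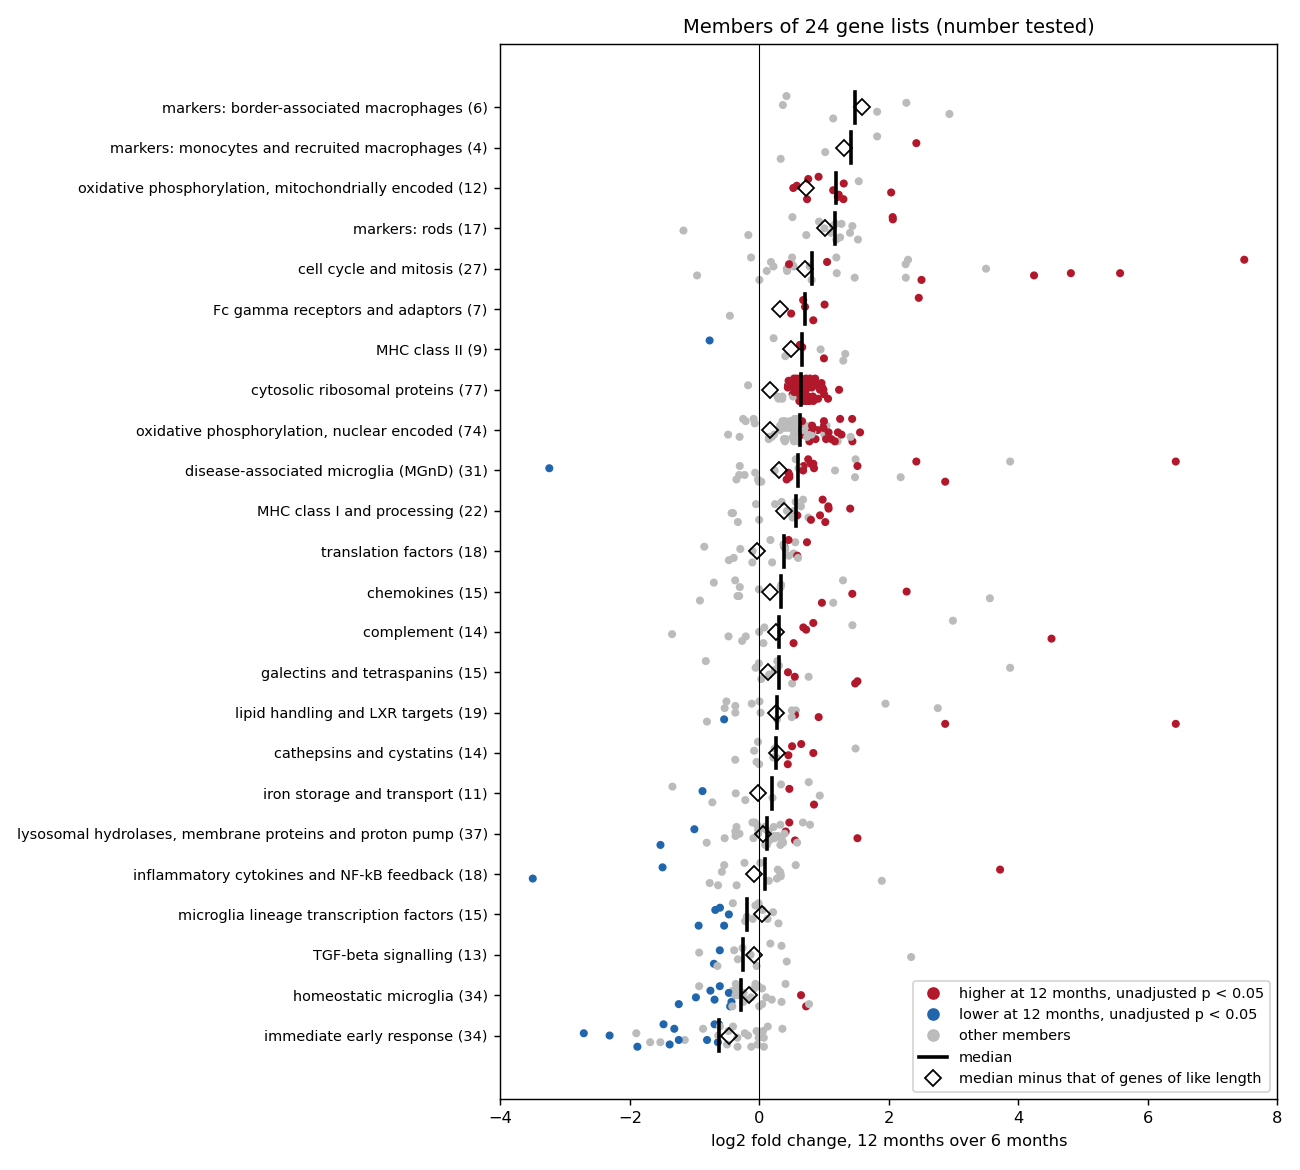
Log2 fold changes, 12 months over 6 months, of the tested members of 24 gene lists (points, coloured by direction where the unadjusted p was under 0.05). Black bars are list medians and open diamonds the median after subtracting, gene by gene, the median of all abundant genes of the same length quintile. Most ribosomal protein points lie above 0, but their diamond lies at 0.17.

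Of the disease-associated microglia genes, 14 were nominally higher at 12 months and 0 were called. Of 31 tested of 36 listed, 23 had positive and 8 negative log2 fold changes, with a median of 0.60. The 14 are 45.2% of those tested, where 4.2% of all genes were nominally higher, and 1, Ank, was nominally lower (-3.25). The title of the series names this signature, so the list is not independent of what the study set out to find. Besides Apoe, Cd63 and Lyz2, the ages did not overlap for Ctsl, the protease cathepsin L (797 ± 199.6 CPM at 12 months and 447 ± 68.9 CPM at 6 months, SD, n = 5 each), and Fth1, the heavy chain of ferritin (2095 ± 644 and 1167 ± 154 CPM). Trem2, the lipid receptor upstream of this state, had 1717, 1651, 1475, 2245 and 1086 CPM at 12 months, against 1092, 1222, 1294, 1383 and 1116 CPM at 6 months (0.42 ± 0.18, adjusted p = 0.615). In 12-month animal 5 Trem2 was below every 6-month animal. Axl, a receptor for dying cells, had 157 ± 56.2 CPM at 12 months and 98.0 ± 34.9 CPM at 6 months (0.68 ± 0.29, adjusted p = 0.615).

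Spp1, Lgals3, Cst7, Clec7a and Itgax, which are widely used markers of the disease-associated state, overlapped between the ages. Spp1, osteopontin, had 118, 55.2, 113, 27.1 and 258 CPM at 12 months, against 15.2, 0, 21.5, 146 and 22.9 CPM at 6 months (1.48 ± 1.04, adjusted p = 0.872). Lgals3, galectin-3, had 6.27, 14.8, 10.2, 0 and 25.9 CPM at 12 months, against 0 in 4 animals and 3.83 CPM in animal 5 at 6 months (3.87 ± 2.00, adjusted p = 0.723). Cst7 had 26.7 ± 21.7 CPM at 12 months and 9.51 ± 6.50 CPM at 6 months. Clec7a, the beta-glucan receptor Dectin-1, had 66.1 ± 47.8 CPM at 12 months and 77.6 ± 37.2 CPM at 6 months (-0.23 ± 0.52). Itgax, which encodes CD11c, had 16.4 ± 13.6 CPM at 12 months and 10.8 ± 6.77 CPM at 6 months. None of the 5 was nominally higher or lower (unadjusted p of 0.0736 to 0.666), and standard errors of 0.52 to 2.00 leave the direction undecided for each. Without the shallow retinas of animals 1 and 4, the median of the list was 0.43.

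Homeostatic microglia genes mostly had negative log2 fold changes, and none was called. Of 34 tested, 25 had negative and 9 positive log2 fold changes, with a median of -0.29. By grade the median was -0.11 with mild, -0.71 with moderate and -0.08 with severe retinas. Of the 34 genes, 9 (26.5%, against 3.36% of all genes) were nominally lower and 2 (5.88%, against 4.2%) nominally higher. In 1 gene, not named here, all 12-month animals were above all 6-month animals, as in 1.52% of all genes. In 2 genes all were below, as in 1.05% of all genes. Rhob and Jun among the 9 nominally lower genes are also on the immediate early list. P2ry13 and P2ry12, receptors for extracellular ADP that steer processes toward damage, were nominally lower. P2ry13 had 536, 514, 875, 465 and 547 CPM at 12 months, against 967, 1019, 769.6, 1103 and 1105 CPM at 6 months (-0.76 ± 0.19, adjusted p = 0.233). P2ry12 had 2486, 1974, 2815, 1873 and 1733 CPM at 12 months, against 2617, 2777, 2752, 3573 and 3167 CPM at 6 months (-0.45 ± 0.16, adjusted p = 0.448). For both receptors, 12-month animal 3 lay within the 6-month range. Tgfbr1, the TGF-beta receptor kinase, had 391 ± 54.9 CPM at 12 months and 597 ± 114 CPM at 6 months without overlap (-0.61 ± 0.17).

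Csf1r, the receptor that microglia need to survive, had 4829 ± 1211 CPM at 12 months and 6406 ± 485 CPM at 6 months, and was nominally lower too (-0.41 ± 0.17, adjusted p = 0.565). Cx3cr1, the fractalkine receptor, had 3565 ± 901 CPM at 12 months and 4589.7 ± 427 CPM at 6 months (-0.36 ± 0.18, adjusted p = 0.698). Sall1, a transcription factor of microglia identity, had 251.6 ± 20.3 CPM at 12 months and 334 ± 95.3 CPM at 6 months (-0.41 ± 0.20, adjusted p = 0.693). Cx3cr1 and Sall1 differed by nearly as much as P2ry12 but were not nominally lower (unadjusted p = 0.0619 and 0.0585). Olfml3, a secreted microglial protein, was 1 of the 2 nominally higher genes, with 4079, 3729.7, 3979, 3976 and 2286 CPM at 12 months, against 2339, 2483, 2106, 2111 and 2519 CPM at 6 months (0.64 ± 0.17, adjusted p = 0.245). It was higher in 12-month animals 1 to 4 and within the 6-month range in animal 5. Tmem119 had 2453 ± 483 CPM at 12 months and 2148 ± 123 CPM at 6 months.

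Of 15 lineage transcription factors, 11 were negative, 5 (33.3%, against 3.36% of all genes) were nominally lower and 0 nominally higher. Their median was -0.19, with -0.37 without 12-month animal 2 and -0.07 without 6-month animal 4. Spi1, which encodes PU.1, the master factor of macrophages, had 108, 116, 107, 73.1 and 121 CPM at 12 months, against 188, 307, 253, 204 and 52.6 CPM at 6 months. In 6-month animal 5 it was below every 12-month animal. Of 13 TGF-beta pathway genes, 9 were negative and 2, Tgfbr1 and the repressor Skil (213 ± 65.6 CPM at 12 months and 347 ± 67.2 CPM at 6 months), were nominally lower. The median was -0.26, with -0.40 without 12-month animal 1 and -0.14 without 6-month animal 3. Transcripts of these factors are long, and after subtraction of the median of their length quintile the lineage list had a median of 0.03 and the TGF-beta list -0.08.

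Antigen presentation genes of class I, which show peptides to CD8 T cells, mostly had positive log2 fold changes, and none was called. Of 22 tested, 17 were positive and 5 negative, with a median of 0.57. Nominally, 8 were higher, against 4.2% of all genes, and 0 lower. H2-D1, a classical heavy chain, had 1626, 2417, 2059.9, 1353 and 1213 CPM at 12 months, against 835, 917, 735, 782 and 1011 CPM at 6 months (1.02 ± 0.20, adjusted p = 0.153). H2-K1, the other classical heavy chain, had 802, 1146, 1116, 660.1 and 579 CPM at 12 months, against 446, 401, 402, 323 and 485 CPM at 6 months (1.06 ± 0.21, adjusted p = 0.153). For both, animals 2 and 3 were highest and animal 5 came near the 6-month animals. B2m, the light chain, had 2994 ± 753 CPM at 12 months and 1724 ± 237 CPM at 6 months. H2-Q6 had 139.6 ± 61.9 CPM at 12 months and 71.0 ± 12.1 CPM at 6 months. The class I heavy chains are near-identical in sequence, so how reads were shared out among them is uncertain. The peptide transporter genes Tap1 and Tap2 had log2 fold changes of 0.24 and -0.41 and were nominally neither (p = 0.586 and 0.176). This list hardly depended on the shallow retinas, with a median of 0.56 without them.

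Class II genes, which present to CD4 T cells, were less uniform. Of 9 tested, 3 (33.3%, against 4.2% of all genes) were nominally higher and 1 (11.1%, against 3.36%) nominally lower (median 0.66). Ifi30, a thiol reductase that prepares antigens, had 417 ± 158 CPM at 12 months and 209 ± 40.6 CPM at 6 months. H2-Ab1, a class II beta chain, had 224 ± 70.7 CPM at 12 months and 145 ± 53.3 CPM at 6 months. H2-Ob, a chain of the inhibitor H2-O of peptide loading, was the nominally lower one and did not overlap, with 82.6, 47.9, 68.1, 53.8 and 60.1 CPM at 12 months, against 90.3, 94.3, 136, 108 and 105 CPM at 6 months (-0.77 ± 0.23, adjusted p = 0.346).

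Complement tags debris and synapses for uptake. Of 14 complement genes tested, 9 were positive and 5 negative, with 5 (35.7%, against 4.2% of all genes) nominally higher and 0 nominally lower. The median was 0.30, with 0.14 without the shallow retinas and 0.48 without 6-month animal 5. C4b, the component cleaved after C1q binds, had 183, 182, 149.9, 39.8 and 106 CPM at 12 months, against 4.33, 0.344, 0, 7.07 and 17 CPM at 6 months (4.51 ± 1.02, adjusted p = 0.189). All 12-month animals were above all 6-month animals, although the right retina of 12-month animal 5 had no C4b count. C4b has a near-identical neighbour, C4a, with which reads may have been shared. C1qa and C1qb, chains of the starter C1q, were abundant at both ages. C1qa had 4739, 4534, 4164, 5001 and 3539.7 CPM at 12 months, against 3008, 3217, 3050.4, 3096 and 2872 CPM at 6 months (0.53 ± 0.13, adjusted p = 0.218), and C1qb had a log2 fold change of 0.68 ± 0.16. C1qc, the third chain, had a negative log2 fold change of -0.48 (unadjusted p = 0.0837). C3ar1, the receptor for C3a, had 451 ± 147 CPM at 12 months and 273 ± 37.4 CPM at 6 months.

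Most genes of receptors for antibody complexes and their adaptors were nominally higher at 12 months, and none was called. The list holds the receptor genes Fcgr1, Fcgr2b, Fcgr3 and Fcgr4 and the signalling genes Fcer1g, Syk and Tyrobp. Of these 7 genes, 6 were positive, and these 6 (85.7%, against 4.2% of all genes) were nominally higher (median 0.70). The median was 0.495 without the shallow retinas. It was 0.32 with all retinas when the median of the same transcript length quintile was subtracted from each gene. For 3 of the 7 genes the 12-month animals were all above the 6-month animals, as in 1.52% of all genes. Fcgr2b, the inhibitory receptor, had 1047, 1061, 867, 812 and 604 CPM at 12 months, against 298, 578, 410.5, 411 and 487 CPM at 6 months (1.01 ± 0.21, adjusted p = 0.153). Fcgr1, the activating high-affinity receptor, had 561, 589, 534, 569 and 372 CPM at 12 months, against 313, 355, 281, 229 and 297 CPM at 6 months (0.83 ± 0.18, adjusted p = 0.168). Both classes of receptor therefore stood above their 6-month range. Fcgr4, another activating receptor, had 147 ± 34.0 CPM at 12 months and 26.7 ± 25.2 CPM at 6 months. Fcer1g, the signalling chain of the activating receptors, had 1192 ± 464 CPM at 12 months and 731 ± 96.3 CPM at 6 months.

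Lysosomal genes did not move as 1 group. Of 37 hydrolases, membrane proteins and pump subunits tested, 22 were positive and 15 negative, 4 (10.8%, against 4.2% of all genes) were nominally higher and 2 (5.41%, against 3.36%) nominally lower. The median was 0.12, with 0.24 without the shallow retinas, 0.07 without 12-month animal 3 and 0.18 without 12-month animal 5. Of 14 cathepsins and cystatins, 5 (35.7%) were nominally higher and 0 nominally lower (median 0.25, and 0.40 without 12-month animal 5). Ctss, the protease that trims class II complexes, had 13157 ± 2953 CPM at 12 months and 9273 ± 715 CPM at 6 months, and Ctsh had 1352 ± 325 and 864 ± 92.3 CPM in the same order. Lamp1, a coat protein of the lysosomal membrane, went the other way, with 167, 338, 152, 163 and 246 CPM at 12 months, against 633, 672, 902, 605 and 262 CPM at 6 months (-1.53 ± 0.31, adjusted p = 0.153). Only 6-month animal 5 overlapped the 12-month range.

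Of 19 lipid handling genes tested, 4 (21.1%, against 4.2% of all genes) were nominally higher, namely Apoe, Npc2, Abca1 and Ch25h. Mylip, a ubiquitin ligase that acts on the LDL receptor, was the 1 nominally lower gene (5.26%, against 3.36% of all genes), with a log2 fold change of -0.54. The median of the list was 0.27, with 0.14 without the shallow retinas, 0.53 without 12-month animal 1 and 0.08 without 12-month animal 2. Npc2, which carries cholesterol out of the lysosome, had 798 ± 168 CPM at 12 months and 545 ± 51.4 CPM at 6 months. Abca1, the cholesterol exporter and target of LXR, had 66.2, 92.9, 76.9, 85.0 and 72.6 CPM at 12 months, against 54.3, 71.4, 15.2, 41.1 and 26.6 CPM at 6 months (0.92 ± 0.37, adjusted p = 0.571). Its 12-month values lay close together, and 6-month animal 2 lay among them. Ch25h, cholesterol 25-hydroxylase, had 45.3, 26.8, 12.0, 0 and 1.65 CPM at 12 months, against 0 in 4 animals and 0.920 CPM in animal 5 at 6 months. Of 11 iron genes, Fth1 and the light chain Ftl1 (18.2%) were nominally higher and the exporter Slc40a1 (9.09%) nominally lower. Slc40a1 had 63.7 ± 34.7 CPM at 12 months and 117 ± 21.5 CPM at 6 months. Of 15 galectins and tetraspanins, 4 (26.7%) were nominally higher and 0 nominally lower (median 0.30), among them Lgals1 with 31.5 ± 11.4 CPM at 12 months and 11.3 ± 4.75 CPM at 6 months.

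Chemokine and cytokine genes did not share a direction. Of 15 chemokine genes tested, Ccl12, Cxcl16 and Ccl2 (20%, against 4.2% of all genes) were nominally higher and 0 nominally lower. The median of this list was 0.33, with -0.07 without the shallow retinas and 0.16 without 6-month animal 5, and Cxcl13 was not on it. Ccl2, the monocyte chemokine, had 189, 201, 309.6, 163 and 314 CPM at 12 months, against 188, 175, 113, 43.8 and 82.8 CPM at 6 months. Of 18 cytokine and NF-kB feedback genes, 1 (5.56%, against 4.2% of all genes) was nominally higher and 2 (11.1%, against 3.36%) nominally lower. Their median was 0.08. Il1b had 44.6, 116, 19.9, 18 and 44.5 CPM at 12 months, against 5.02, 11.8, 0.0794, 0 and 1.48 CPM at 6 months (3.72 ± 1.20, adjusted p = 0.362). Nlrp3, the sensor that leads to release of IL-1 beta, was nominally lower instead, with 25.4 ± 9.72 CPM at 12 months and 71.7 ± 40.9 CPM at 6 months (-1.50 ± 0.50). Il6 had 0.779 ± 0.927 CPM at 12 months and 8.78 ± 5.04 CPM at 6 months. The median of the chemokine list was negative in 6 of 29 alternative fits, and that of the cytokine list in 12.

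Genes of the mitochondrial genome encode core subunits of the respiratory chain. The share of the counts on all genes of this genome rose, with 1.98%, 2.06%, 1.56%, 2.11% and 2.00% in 12-month animals 1 to 5, against 0.641%, 1.17%, 1.02%, 1.49% and 1.42% in 6-month animals 1 to 5. In an exact permutation test over the 10 animals the two-sided p was 0.00794, the smallest that 5 against 5 animals allow, and 0.0476 adjusted over 18 measures. Of the 13 subunit genes listed, all 12 tested had positive log2 fold changes (median 1.18), and 11 were nominally higher, where 4.2% of all genes were. mt-Nd2, a subunit of complex I, had 219 ± 69.5 CPM at 12 months and 88.8 ± 23 CPM at 6 months (1.3 ± 0.27, adjusted p = 0.162). mt-Atp6, a subunit of ATP synthase, had 1902 ± 573 and 863 ± 251 CPM in the same order. Without the shallow retinas the list's median was 0.80, and the difference in share was 0.616 percentage points in place of 0.793 and did not pass the adjustment.

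The ribosomal share of the counts rose as well, with 2.4%, 2.07%, 1.60%, 2.47% and 1.93% in the 12-month animals, against 1.39%, 1.52%, 1.44%, 1.59% and 1.56% in the 6-month animals (exact permutation p = 0.00794, adjusted 0.0476). Without the shallow retinas the difference was 0.325 percentage points in place of 0.592 and missed the threshold (adjusted p = 0.0952, exact permutation test). Of 77 ribosomal protein genes, 76 were positive, 66 (85.7%, against 4.2% of all genes) were nominally higher and 0 nominally lower (median 0.64). In 22 all 12-month animals were above all 6-month animals, as in 1.52% of all genes, and no member was called. Rpl23 and Rps28, subunits of the large and the small particle, had 279 ± 71.2 and 108 ± 36.9 CPM at 12 months, against 143 ± 23.6 and 45.8 ± 10.5 CPM at 6 months in the same order. Of 74 oxidative phosphorylation genes of the nucleus, 68 were positive, but 23 (31.1%) were nominally higher, 0 nominally lower and 0 called (median 0.63). Ndufa4, a subunit of cytochrome oxidase, had 82.9 ± 32.4 CPM at 12 months and 34.9 ± 4.21 CPM at 6 months. Pabpc1, the poly(A)-binding protein, had 477 ± 81.4 CPM at 12 months and 287 ± 19.3 CPM at 6 months, and was 1 of 4 nominally higher genes (22.2%) among 18 translation factors.

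Transcript length moved with these results. Across 6994 genes whose average log2 CPM was 4 or more, Spearman's rho between log2 fold change and transcript length was -0.43, a description over genes that share libraries. The median log2 fold change was 0.50 in the shortest quintile (69 to 1226 bases), 0.17, -0.06 and -0.20 in the next, and -0.25 in the longest quintile. Nominally higher genes had a median length of 1092 bases, nominally lower ones 3020 bases and all 2231 bases, while ribosomal protein genes had 666 bases. When the median of the same length quintile was subtracted from each gene, the list medians were 0.17 for ribosomal proteins, 0.17 for nuclear oxidative phosphorylation and -0.04 for translation factors. They were 0.72 for mitochondrially encoded genes, 0.30 for disease-associated genes, 0.38 for class I genes, -0.47 for immediate early genes and -0.16 for homeostatic genes. The part of length in the results was not tested further.

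**Figure D3:**
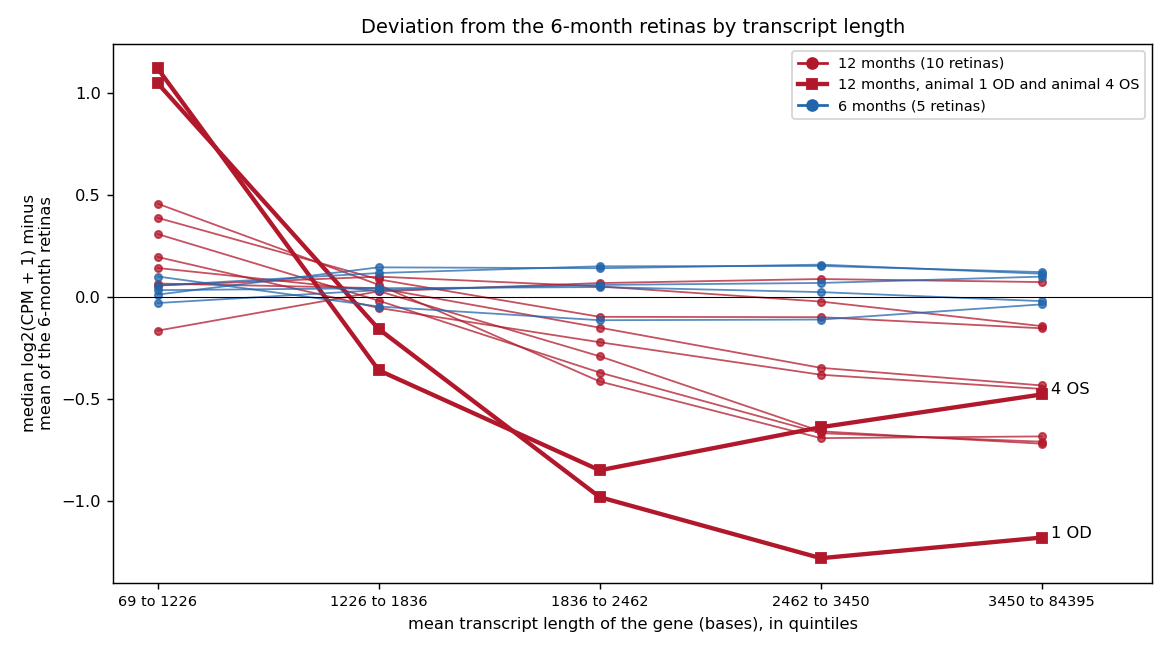
Median log2(CPM + 1) of abundant genes in each retina minus the mean of the 6-month retinas, by quintile of transcript length. The 12-month retinas animal 1 OD and animal 4 OS are highest among the shortest transcripts, at 1.05 and 1.12, and most retinas at 12 months slope downward while the 6-month retinas stay within 0.16 of 0.

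The slope was steepest in the shallow retinas from animals 1 and 4 (1.05 and 1.12 above the 6-month mean in the shortest quintile), and absent in the right retina of animal 5 (-0.16). Ribosomal protein genes took 3.95% of the counts in animal 1 OD and 4.26% in animal 4 OS, against 1.22% to 2.49% in the other 8 retinas at 12 months and 1.39% to 1.59% at 6 months. Without the shallow pair the list medians were 0.44 for ribosomal proteins and 0.46 for nuclear oxidative phosphorylation.

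Of 27 cell cycle genes tested of 32 listed, 25 were positive, 7 (25.9%, against 4.2% of all genes) were nominally higher, 0 nominally lower and 0 called (median 0.81). Levels ran from a few CPM up to those of the tubulin Tuba1b, with 708 CPM at 12 months and 515 CPM at 6 months on average. Aurka, a mitotic kinase, had 16.0, 13.7, 2.71, 32.8 and 2.53 CPM at 12 months, against 0.321 CPM (6 counts) in animal 1 and 0 in the other 4 at 6 months (7.49 ± 1.69, adjusted p = 0.189). Birc5, survivin, and Ube2c, a ubiquitin enzyme of mitosis, had 16.9 ± 15.3 and 18.6 ± 13.3 CPM at 12 months, against 0.588 ± 0.917 and 0.375 ± 0.764 CPM at 6 months. These reads were patchy, and Aurka had 0 counts in 5 of the 10 retinas at 12 months. The list's median was 0.33 without the shallow retinas, 1.23 without 6-month animal 4 and 1.35 without 6-month animal 5.

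Of 12 marker sums of other cells, 1, that of monocytes, differed between the ages past the adjusted threshold. The summed CPM of 10 monocyte markers was 865 ± 361 at 12 months and 203 ± 135 at 6 months (exact permutation p = 0.00794, adjusted 0.0476), and the ages did not overlap. Without the shallow retinas the difference was 538 CPM in place of 662 and missed the threshold (adjusted p = 0.0952, exact permutation test). The ages still did not overlap there, with 742, 1156, 489, 722 and 596 CPM in 12-month animals 1 to 5, against 57.6 to 397 CPM at 6 months. Lyz2, which is also on the disease-associated list, made up most of the sum, and the other 9 markers summed to 57.4 ± 40.3 CPM at 12 months and 30.7 ± 14.3 CPM at 6 months, with overlap. Ly6c2 and Chil3, which define classical monocytes, had no count in any retina, and Ccr2 had 12.0 ± 15.6 CPM at 12 months and 9.57 ± 3.72 CPM at 6 months. Since the sort took Ly6c- cells, the lack of Ly6c2 counts cannot show whether monocyte-derived cells were present. Border-associated macrophage markers summed to 206 ± 98.5 CPM at 12 months and 121 ± 70.9 CPM at 6 months (adjusted p = 0.333, exact permutation test), with Cd209f at 0 in all retinas. Rod markers summed to 1845 ± 991 CPM at 12 months and 907 ± 993 CPM at 6 months (adjusted p = 0.333, exact permutation test), with every one of the 17 markers counted at both ages. The median of the rod list was 1.18, with 0.75 without the shallow retinas and 1.94 without 6-month animal 1. Microglia markers summed to 29837 ± 4565 CPM at 12 months and 35264 ± 2154 CPM at 6 months (p = 0.0397, adjusted 0.179, exact permutation test). Gfap, 6 of 9 ganglion cell markers and 7 of 8 neutrophil markers were at 0 in all 15 retinas. The part of these other cells in the gene results was not tested.

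**Figure D4:**
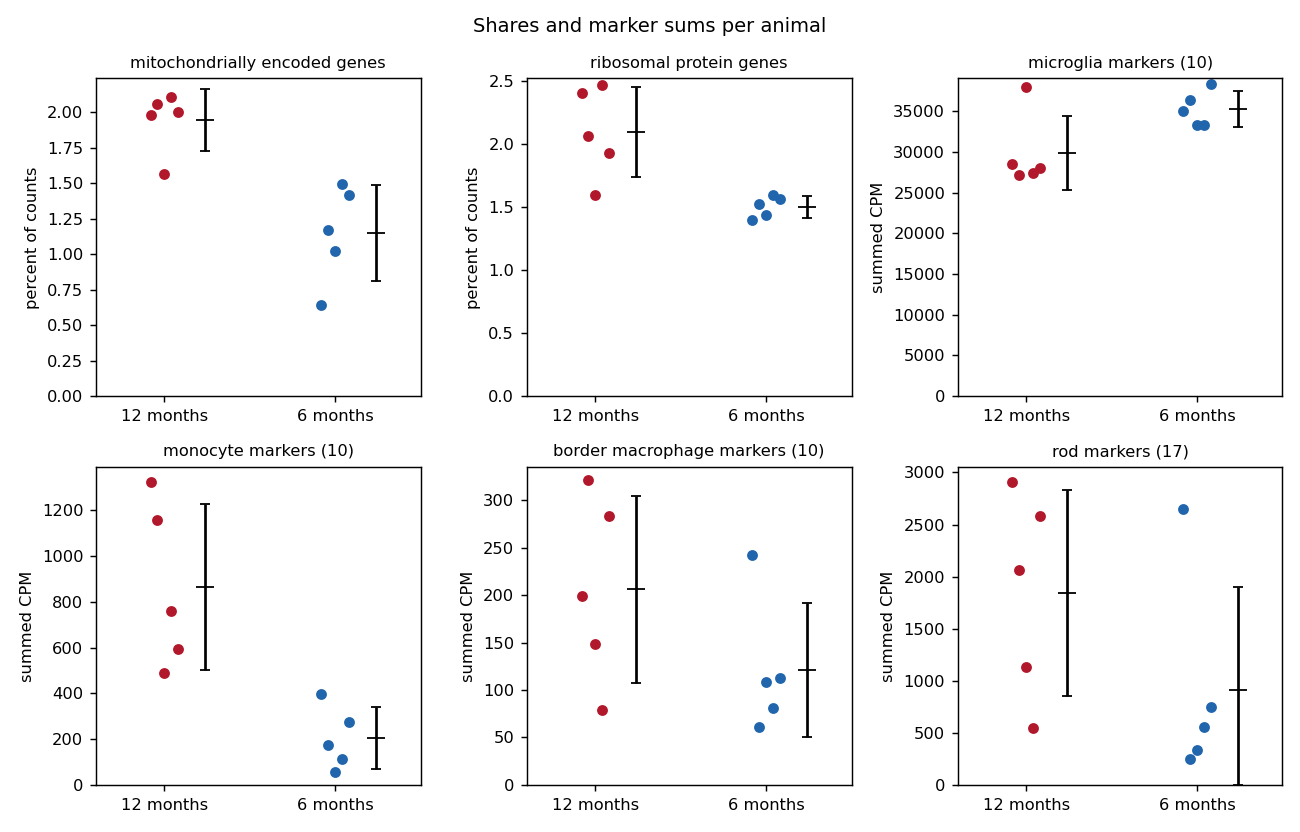
Shares of counts and summed CPM of marker lists per animal (points) in 12-month (left) and 6-month (right) DBA/2J microglia, with mean and SD (bars, n = 5 each, cut at 0). The mitochondrial, ribosomal and monocyte panels show no overlap between the ages, and the rod panel shows 6-month animal 1 at 2648 CPM among the 12-month animals.

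The 12-month retinas varied more than the 6-month ones. Over 6994 genes, the median absolute log2 difference between the eyes of an animal at 12 months was 0.94 to 1.23, with a median of 1.04 (5 pairs). It was 1.12 (median of 40 pairs) between retinas of different 12-month animals and 0.56 (median of 10 pairs) between 6-month animals. The eyes of an animal were therefore about as unlike as retinas of different animals. At 12 months 0.229% to 9.88% of these genes had no count in a retina, against 0.0429% to 1.37% at 6 months.

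Levels were also set out by grade. Apoe was at 868 to 2341 library-scaled CPM at 6 months, 2367, 4031 and 6410 CPM in the mild retinas, 8056, 8420, 14727 and 32974 CPM in the moderate ones and 6870, 8563 and 15550 CPM in the severe ones. Even the mild retinas thus lay above the 6-month range, the lowest of them by little. Set against the 6-month animals by grade, the log2 fold change of Apoe was 1.28 with mild, 3.72 with moderate and 3.06 with severe retinas, and that of C4b was 1.79, 4.97 and 4.91. For Ppp1r15a it was -1.56, -1.77 and -1.02 in the same order. The ribosomal median was 0.43, 1.17 and 0.23, the disease-associated median 0.47, 0.93 and 0.33, and the immediate early median -0.63, -0.97 and -0.62. The homeostatic median was -0.11, -0.71 and -0.08, and P2ry12 had log2 fold changes of -0.33, -1.17 and 0.04. Rod markers had medians of -0.36, 2.43 and 0.14, highest with the moderate retinas. The moderate retinas include the shallow animal 1 OD, which had 6585 CPM of rod markers and 32974 CPM of Apoe, and the mild retinas include the shallow animal 4 OS. Animals 1 and 5 each gave a retina to 2 grades. The X-linked Xist, transcribed in females, was at 920, 1178 and 1589 library-scaled CPM in 12-month animals 1 to 3. In animals 4 and 5 it was at 0.126 and 0 CPM, and the Y-linked Ddx3y at 43.6 and 61.6 CPM. The mild retinas all came from animals 4 and 5 and the severe ones from animals 1 and 3. Mild and severe grade therefore cannot be told apart from sex. No gene was called by edgeR in any grade (0 of 13837, 13053 and 13993 tested), each with 2 or 3 animals. At mild, moderate and severe grade 293, 624 and 301 genes were nominally higher and 804, 850 and 523 nominally lower. Differences between grades were not tested.

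**Figure D5:**
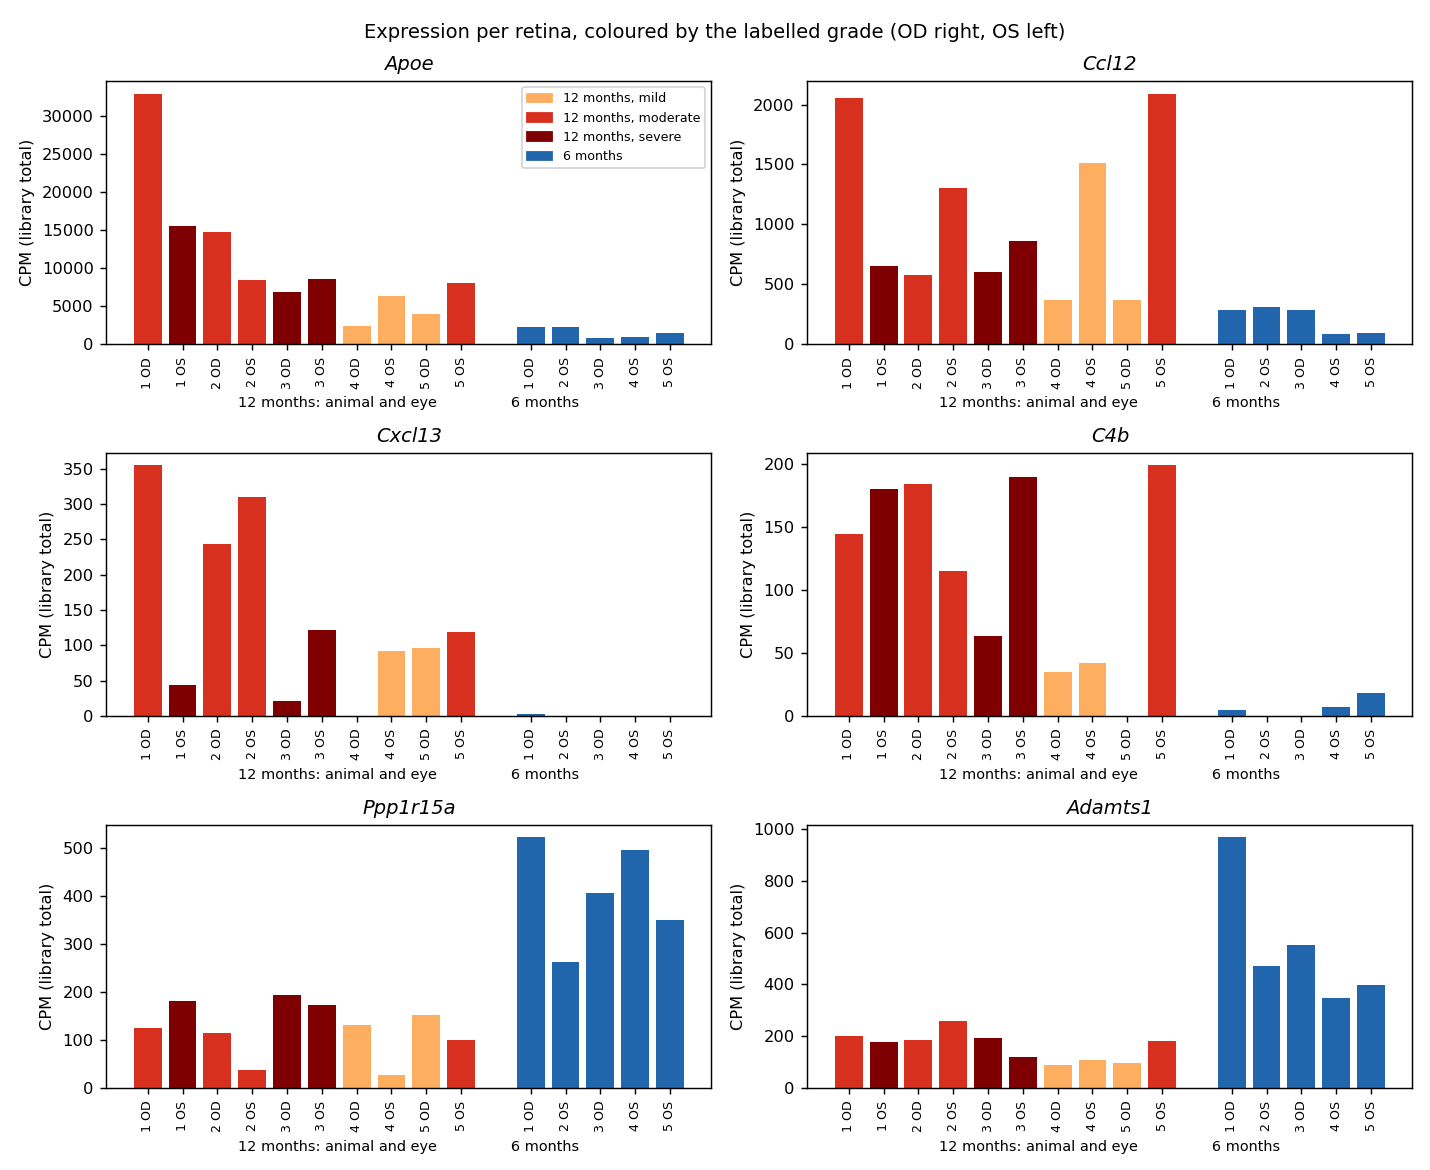
Library-scaled CPM per retina for 6 genes, with the 10 retinas at 12 months (left, coloured by grade) and the 5 at 6 months (right). Apoe and Ccl12 are above all 6-month bars in every 12-month retina, Ppp1r15a and Adamts1 below, and 1 retina at 12 months is at or near 0 for Cxcl13 (4 OD) and for C4b (5 OD).

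For orientation, the same genes were read in 5 Gpnmb+ animals of 12 months (9 retinas), scaled to the library total. Several of these libraries were poor, which limits the reading below. Except for 3 OS, the retinas of Gpnmb+ animals 1 to 3 had 3469 to 9958 genes detected, against 10703 to 15046 in 12-month DBA/2J retinas. Retina 2 OD had 977886 counts and 23411 CPM of rod markers. Apoe averaged 10358 ± 7186 CPM in 12-month DBA/2J, 2018 ± 1895 CPM in 12-month Gpnmb+ and 1604 ± 707 CPM in 6-month DBA/2J (SD, n = 5 each). Ppp1r15a averaged 132 ± 37.8, 337 ± 136 and 406 ± 106 CPM in the same order, C4b 124 ± 53.7, 4.44 ± 6.09 and 6.10 ± 7.51 CPM, and H2-D1 1628 ± 419 CPM, 886 ± 257 CPM and 899 ± 137 CPM. Cxcl13 averaged 127 ± 91.0, 26.5 ± 35.8 and 0.683 ± 1.53 CPM. Other genes had Gpnmb+ means near those of 12-month DBA/2J, but their Gpnmb+ animals ranged into both DBA/2J ages. P2ry13 averaged 559 ± 171 CPM in 12-month DBA/2J, 611 ± 300 CPM in 12-month Gpnmb+ (286 to 977) and 1040 ± 145 CPM in 6-month DBA/2J. Csf1r averaged 4619 ± 1406, 4646 ± 2032 (1440 to 6251) and 6720 ± 661 CPM in the same order. For mt-Nd2 the means were 205 ± 55.8, 209 ± 125 (59.2 to 366) and 92.7 ± 22.9 CPM. Of 96 named genes with an unadjusted p below 0.05 between the DBA/2J ages, the Gpnmb+ mean lay nearer to the 12-month mean in 30 and nearer to the 6-month mean in 66 (31 and 65 on the log2(CPM + 1) scale). These genes were chosen by their difference between the DBA/2J ages in the same data, and no such count was made over all genes. The count therefore cannot show which age the Gpnmb+ microglia resembled. Cxcl13 was nearer to 6 months in CPM and nearer to 12 months on the log2 scale. These values are a description, and no test was run on them here.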

How the data were processed

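RNA of sorted microglia was measured in 15 DBA/2J retinas. The authors deposited expected counts, which are estimated reads per gene that need not be whole, in 1 table for each retina, per the file headers. Version numbers in the submitters' processing notes are 1.4.0 for Salmon, 4.0.3 for R and 1.30.1 for DESeq2, beside the build mm10, and no roles are named. The annotation release is not given in the sources used here. Columns in TPM and FPKM were left aside, as was a table of the whole series with 24 columns of sample values. Of 47729 gene IDs, 47224 matched a symbol, and positions are on GRCm38. Whether counting used strand is not given in the sources used here.

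Expected counts were rounded per retina and added over the eyes of an animal. No pair of libraries within a group was a duplicate, since chi-square per degree of freedom was at least 88.5. The test was edgeR's quasi-likelihood F test (edgeR 4.0.16, R 4.3.3, two-sided) with TMM scaling, filterByExpr (minimum count 10, minimum total 15), Benjamini-Hochberg adjustment and a threshold of 0.05. Only the 10 animals compared entered it. Exact two-sided permutation tests (scipy 1.17.1) compared 18 measures of the animals. Their smallest possible p was 0.00794, so whether a measure passed the adjustment depended on how many others also reached it. A missed threshold therefore need not mean a smaller difference. Scripts were tested on simulated data. CPM of animals are TMM-scaled, and CPM of retinas and marker sums refer to the library total. Transcript length is the deposited length of each gene. Labels do not say whether animals shared a litter or cage, so p-values measure the spread between these animals.

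The rule for named genes took the sort and genotype genes, a fixed set of microglia genes, up to 15 genes in each direction whose average log2 CPM was 4 or more (called or without overlap, smallest p first), and up to 4 of each list. Some of the genes it takes are not reported here. Members and lists were chosen with earlier results of these data known. C1qc, Tap1, Tap2, Fos, Egr1, Ank and the further members given by fold change alone were chosen after their values were seen. Alternatives were DESeq2 1.42.0, other scalings, filters and fits, single eyes, single grades and left-out animals. Robust estimation and leaving out the 2 shallowest retinas were chosen after seeing the data. Same-numbered animals of the ages are different animals, and their deviations had correlations of -0.02 to 0.05, so the numbers do not pair single animals. The numbers do follow sex, since at both ages Xist was at 920 CPM or more in animals 1 to 3. In animals 4 and 5 of both ages it was at 7.84 CPM or less, and Ddx3y was counted only there. Sex was not a term of the fits. Since it follows the animal number at both ages, a block on that number takes up a sex difference shared by the ages.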

Additional observations from a re-analysis of the deposited data

Results flagged for a closer look

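Of 122 groups of 5 animals examined, 10 had an animal whose gap to its nearest neighbour took up more than 0.71 of the group's range. About 1 in 20 would do so among independent groups of normally distributed values. The groups here share animals, and a group with counts in only 1 animal always does so, so that rate is no measure of chance here. Among genes, Spp1 was at 145.7 CPM in 6-month animal 4, against 0 to 22.9 CPM in the other 4. Lgals3 was at 3.83 CPM in 6-month animal 5 and Cxcl13 at 3.15 CPM in 6-month animal 1, each against 0 in the other 4. Exoc6b was at 65.4 CPM in 6-month animal 3, against 49.4 to 52.5 CPM.

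Of 12-month animals, animal 3 stood apart most often. Mitochondrial genes took 1.56% of its counts, against 1.98% to 2.11% in the other 4 at 12 months. Its microglia markers summed to 37943 CPM, against 27148 to 28566 CPM, and its red cell markers to 1.92 CPM, against 0 to 0.0708 CPM. Of 6-month animals, animal 1 had 242 CPM of border macrophage markers, against 60.6 to 113 CPM, and 2648 CPM of rod markers, against 247 to 751 CPM. Ganglion cell markers summed to 3.90 CPM in 6-month animal 3, against 0 to 0.116 CPM.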

How the results depend on the processing

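Of 29 alternative fits, 23 called no gene. DESeq2 called 217, retinas with a random animal effect 25 (2 higher, with a median of all genes of -0.41), no filter on low counts 8, sample quality weights 2 (Ccl12 and Lrg1) and left retinas only 1 (Apoe). Leaving out an animal gave 0 to 1 calls, the 1 being Cxcl13 without 6-month animal 1. The replicate block on animal number gave 0 calls, with 0.0509 as the smallest adjusted p. It gave 466 nominally higher and 442 nominally lower genes. The number of separated genes, those without overlap, was 37 with each retina as a replicate, 197 with left retinas only, 1864, 1320 and 1714 with mild, moderate and severe retinas only, where 2 or 3 animals stand against 5, and 408 to 598 without an animal, against 313 with all animals. The mitochondrial share kept its direction but missed the adjusted threshold with right (0.916 percentage points) or left retinas only (0.917), with the deeper retina of each animal (0.684) and without the 2 shallowest retinas (0.616). The ribosomal share (0.678, 0.876, 0.437 and 0.325 percentage points) and the monocyte marker sum (917, 460.0, 630.1 and 538 CPM) did the same under these 4 settings, in the same order. The ages still did not overlap for the mitochondrial share with right retinas (1.58% to 2.98%, against 0.641% to 1.49%). Nor did they for the monocyte sum with left retinas (414 to 887 CPM, against 57.6 to 397 CPM), the deeper retinas (414 to 1498 CPM) or without the 2 shallowest. In the other cases they overlapped, the ribosomal share in all 4 settings.

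The medians of the ribosomal, oxidative phosphorylation, mitochondrial, disease-associated, homeostatic, immediate early, class I, class II, complement, Fc receptor, cathepsin and cell cycle lists kept their sign in all 29. Log2 fold changes of some genes with low counts or small differences turned round, and the cause was not tested. With mild retinas only they were -1.66 for Fcrls, -2.05 for Itgax, 0.12 for Sall1, -0.21 for Sag, -3.41 for Rom1, -1.64 for Ms4a4c, -8.64 for F13a1, -0.59 for Ccr2 and -0.55 for Pf4. With moderate retinas only they were -0.10 for Itgam, 0.33 for Clec7a and -0.32 for Tmem119. With severe retinas only they were -0.80 for Itgax, 0.039 for P2ry12, -0.47 for Ccr2 and -0.38 for Stab1. A random animal effect gave -1.29 for Fcrls, -0.17 for Itgax, -0.51 for Ms4a4c and -0.63 for Ccr2, and quality weights -0.075 for Itgam, -0.33 for Fcrls and -0.21 for Ccr2. Right retinas gave -0.13 for Itgam and -1.74 for Ccr2, left retinas -0.45 for Fcrls and 0.22 for Clec7a, and the deeper retina 0.19 for Clec7a. The replicate block gave -0.30 for Fcrls and -0.41 for Ccr2. Without an animal the ranges were -0.10 to 0.19 for Itgam, -0.15 to 0.68 for Fcrls, -0.69 to 0.023 for Clec7a, -0.051 to 5.60 for F13a1 and -0.91 to 0.61 for Ccr2.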

Other observations

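Interferon response and fatty acid oxidation genes were about evenly split between directions. Of 27 type I interferon response genes, 13 had positive and 14 negative log2 fold changes, with 1 nominally higher and 0 nominally lower (median -0.03). Of 15 fatty acid oxidation genes, 7 were positive and 8 negative, with 0 nominally higher or lower (median -0.02). Of 17 glycolysis genes, 11 were positive and 6 negative, with 1 nominally higher and 0 nominally lower (median 0.19). Heat shock genes and chaperones, which respond to protein damage, had 10 positive and 6 negative members of 16, with 1 nominally higher and 0 nominally lower (median 0.25). The nominally higher shares of these lists were 0% to 6.25%, against 4.2% of all genes. Leaving out 1 animal gave medians of -0.37 to 0.18 for the interferon, -0.12 to 0.14 for the fatty acid oxidation, 0.14 to 0.31 for the glycolysis and 0.14 to 0.39 for the heat shock list.

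Of 18 phagocytosis and cytoskeleton genes, 14 were positive and 4 negative, with 5 (27.8%, against 4.2% of all genes) nominally higher and 1 (5.56%, against 3.36%) nominally lower (median 0.14). Of 12 Trem2 signalling genes, 6 were positive and 6 negative, with 3 (25%) nominally higher and 1 (8.33%) nominally lower (median -0.07). Of 14 Toll-like receptor genes, 10 were positive and 4 negative, with 1 (7.14%) nominally higher and 1 nominally lower (median 0.24). Leaving out 1 animal gave medians of 0.12 to 0.23, -0.18 to 0.08 and 0.10 to 0.32 for these lists, in the same order.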
